A study of Mus musculus with 6 samples.

Results

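When a pair of related transcription factors is removed, the double knockout can differ from what the single knockouts add up to. That departure was measured in mouse keratinocytes lacking *Sox4*, *Sox11* or both. For each probe the sum of the Sox4cKO and Sox11cKO log2 ratios (knockout over wild type) was subtracted from the dcKO log2 ratio, and the result is called the departure from the sum. A departure of 0 means that the fold changes of the single knockouts multiply to give that of the double. All 6 arrays of the series entered this value, and it was available for 55681 probes. Of these, 183 probes departed from the sum (0.329% of those tested). They were divided into redundancy, where the double knockout changed beyond the sum, and buffering, where changes of the single knockouts were lost in the double.

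SOX4, SOX11 and SOX12 form the SoxC group, whose members share a DNA-binding domain and recognise nearly the same short motif. They are active in embryonic progenitors and in tissue under repair, and in skin they are known from the embryonic epidermis and the wound edge. Factors with so similar a binding domain can replace one another at a gene, in which case the loss of either alone has little effect. They can also act on a gene in ways that offset each other, and then a change seen after one loss can disappear after the second.

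The cells were primary keratinocytes from the skin of newborn pups. They had spent 3 passages on J2 fibroblast feeders and at least 2 passages without them. The labels give the strain as 129SvEx:C57BL/6. In the study's breeding scheme, floxed *Sox4* and *Sox11* alleles were deleted by *Krt14-Cre*, which is active in basal keratinocytes, from an FVB/N line. The founder mice were Sox4 fl/fl, Sox11 fl/fl and Sox12-/-, and whether the cultured cells kept the *Sox12* deletion is not stated, nor whether the wild-type cells carried Cre. Sox4cKO, Sox11cKO and Sox4/11 dcKO cells were each hybridised on 2 arrays against wild-type control RNA, with the dyes exchanged between replicates 1 and 2. The labels call the arrays biological replicates, without naming the culture or litter behind any channel. Every p-value therefore measures the spread between arrays only, and with 2 arrays a genotype their number limits the precision.

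On each array 35.1% to 42.8% of the probes passed the scanner software's mark for signal above background in the knockout RNA, and 37.3% to 45% in the wild-type RNA. The 9 keratinocyte markers examined, among them *Krt5*, *Krt14* and *Trp63*, were above background in every channel. Of 10 fibroblast markers, 7 to 9 were above background on neither array of a group, and the log2 summed level of that list stayed between 8.21 and 8.46 in all channels. The corresponding sum for the 6 melanocyte markers ran from 8.21 to 10.2, highest in wild-type channels of the Sox11cKO arrays, and its part in the results was not tested. The sums for 7 immune and 4 endothelial markers ran from 10.8 to 11.7 and from 10.4 to 10.8. None of the fibroblast, melanocyte, immune or endothelial markers departed from the sum of the single knockouts, but only 0.585% of all named genes did. Above background in every group were 1 fibroblast, 3 melanocyte, 2 immune and 1 endothelial marker. Lists this short yield few calls at that share, and nothing is read from the count. As these are bulk cultures, fewer cells of a type and less RNA per cell cannot be told apart.

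The wild-type channels differed from one another, which matters here because each genotype is read against its own. The level of a channel is given as its log2 signal after normalisation between arrays. Over the 21122 probes above background in every group, the range of the 6 wild-type levels had a median of 0.82 on the log2 scale. Among the 137 such probes that departed from the sum, that median was 2.57. The wild-type channels are part of the departure, so choosing probes by it favours a wide range, and nothing is read from the contrast. Because the wild-type channels differed, the departure is also given against 1 common reference, the mean of the 6 wild-type levels. This second value is a description and was not tested. It drops the pairing of each knockout with its own control. An effect shared by both channels of an array cancels in the ratio but not here, so this value can also carry added error. Where the wild-type cells of one genotype's arrays stood apart, a difference of the knockouts and a difference of the controls cannot be told apart.

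The targeted genes themselves were not called. The *Sox4* log2 ratios were -2.49 and -2.54 in Sox4cKO, 0.06 and -0.35 in Sox11cKO, and -2.23 and -2.81 in dcKO cells. *Sox4* was thus low in both genotypes that lack it and near 0 in the third. *Sox11* gave 0.82 and -0.97 in Sox4cKO, -3.31 and -2.65 in Sox11cKO, and -3.07 and -3.79 in dcKO cells. The departures were 0.14 for *Sox4* (adjusted p = 0.92) and -0.38 for *Sox11* (adjusted p = 0.9). *Sox12* was not above background on any array.

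Of the 183 probes that departed from the sum, 103 lay above it (0.185% of probes) and 80 below (0.144%). They represent 133 named genes and 35 probes without a gene name. Without adjustment, 6011 probes (10.8%) had a p below the same threshold. The sign of the departure was the same in all 8 combinations of 1 array per genotype for 182 of the 183 (26.3% of all probes), which follows in part from choosing them by their p on these arrays. These counts depended on the processing. With a larger background offset, 50 in place of 16, or with the scanner software's processed signals, limma called 0 probes at smallest adjusted p of 0.106 and 0.395, although 6013 and 5685 probes had an unadjusted p under 0.05 and all 183 kept their sign. With 1 array left out the count was 19 without Sox4cKO replicate 1, 40 without Sox4cKO replicate 2, 1922 without Sox11cKO replicate 1, 600 without Sox11cKO replicate 2, 85 without dcKO replicate 1 and 87 without dcKO replicate 2.

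Redundancy was assigned to 54 probes (0.097% of those tested), 29 above and 25 below the sum. A probe was placed here when the dcKO ratio exceeded 1.5 on the log2 scale in the direction of the departure and the singles' sum did not oppose it by 1 or more. Buffering took 46 probes (0.0826%), with a singles' sum beyond 1.5 against the departure and a dcKO ratio under 1 in its direction. In a group of 63 probes (0.113%), named opposite, the singles' sum and the dcKO ratio were both 1 or more in size, in opposite directions. Neither single passed the threshold in 57 of the 63, and neither a single nor the double in 20. The last 20 probes (0.0359%) met none of these limits. The median size of the departure was 2.62 for redundancy, 2.75 for buffering and 3.63 for the opposite group.

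**Figure D1:**
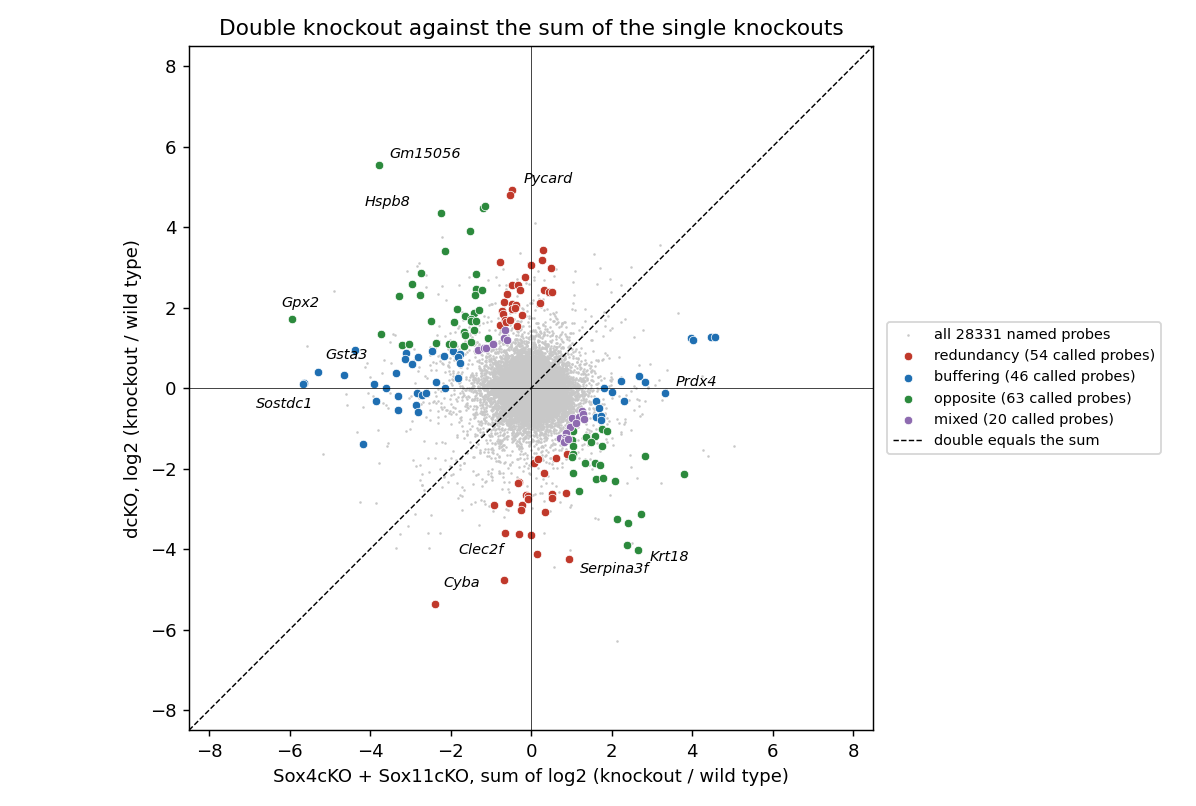
The log2 ratio in dcKO cells is plotted against the sum of the Sox4cKO and Sox11cKO log2 ratios, with grey points for 28331 named probes and coloured points for the 183 that departed from the sum. Redundancy lies along the vertical axis, buffering along the horizontal axis and the opposite group in the upper left and lower right, away from the dashed line on which the double equals the sum.

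The redundancy probes had a median dcKO change of 2.57 in size and a median singles' sum of 0.45. All 54 passed the threshold in dcKO cells (0.756% of all probes did), and 0 did so in Sox4cKO (0.142%) or Sox11cKO cells (0.0862%), but the dcKO ratio was part of the rule and nothing is read from that count. The dcKO ratio differed from that of both single knockouts in 49 of the 54 (0.562% of all probes differed between dcKO and Sox4cKO and 0.449% between dcKO and Sox11cKO), which the choice of the probes also favours. That choice likewise favours dcKO arrays that stand apart from the single-knockout arrays in the genes described below.

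*Pycard* (probe A_51_P438821), which encodes the adaptor protein of inflammasomes, rose in the double knockout alone. Its log2 ratios were -0.76 and -0.17 in Sox4cKO, -0.20 and 0.20 in Sox11cKO, and 4.94 and 4.91 in dcKO cells. The dcKO arrays stood far above the other 4, which spanned 0. The departure was 5.39 ± 0.28 (SE, limma adjusted p = 0.0024), and it was called in 14 of the 16 other settings tried. The corresponding number was 13 for *Gsta3*, *Hspb8*, *Orm1* and *Krt18* and 6 to 11 for the other genes chosen by size, lowest for *Wfdc2*.

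*Sqor*, a mitochondrial enzyme of sulfide oxidation, gave -0.25 and -0.13 in Sox4cKO, 0.17 and -1.32 in Sox11cKO, and 3.60 and 2.69 in dcKO cells. Its departure was 3.91 ± 0.44 (SE, adjusted p = 0.0275). *Mst1*, the ligand of the receptor kinase RON, gave -0.03 and -0.45, then 0.61 and -0.44, and 2.82 and 2.71 in the same order, for a departure of 2.92 (adjusted p = 0.0275). In both genes the dcKO arrays stood above all 4 single-knockout arrays. *1810037I17Rik* departed by 3.14, although its brightest probe was at 0.81 and was not called (adjusted p = 0.266), the orphan receptor gene *Adgrf4* by 2.71, and *Mxd4*, a partner of MAX that opposes MYC, by 2.65. *Duox1* and *Duoxa1*, an oxidase of the cell surface that makes hydrogen peroxide and its maturation factor, departed by 2.21 and 2.56.

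On the side of lower expression, *Serpina3f*, a serine protease inhibitor, had the largest departure of this class among probes above background in every group. Its log2 ratios were -0.24 and -0.95 in Sox4cKO, 1.87 and 1.22 in Sox11cKO, and -2.94 and -5.55 in dcKO cells. The departure was -5.19 ± 0.56 (SE, adjusted p = 0.0241). The wild-type levels were 15.04 and 15.78 on the Sox4cKO arrays, 5.90 and 7.92 on the Sox11cKO arrays, and 14.26 and 14.24 on the dcKO arrays. The Sox11cKO cells and their controls were thus both low for *Serpina3f*, and a second probe of the gene was at -1.95 and was not called.

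*Akap12*, a scaffold that anchors protein kinases, fell in dcKO cells. Its ratios were -0.23 and -0.76 in Sox4cKO, -0.06 and -0.23 in Sox11cKO, and -3.27 and -3.91 in dcKO cells, so that the dcKO ratios did not overlap the rest. The knockout levels did overlap, with 9.06 and 9.40 on the dcKO arrays and 9.31 on Sox11cKO replicate 2. The departure was -2.95 ± 0.27 (SE, adjusted p = 0.017), with -2.02 for a second probe, which was called too. *Emb*, an immunoglobulin-family partner of monocarboxylate transporters, gave 0.84 and 0.18, -0.19 and -1.43, and -3.68 and -3.55, for a departure of -3.31 (adjusted p = 0.0314).

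*Etv5*, an ETS factor induced by fibroblast growth factor signalling, is a case in which the singles pulled apart. It gave 1.78 and 0.87 in Sox4cKO, -0.75 and -0.88 in Sox11cKO, and -1.95 and -3.49 in dcKO cells, with a departure of -3.24 (adjusted p = 0.0332). The dcKO ratio of *Etv5* differed from that of Sox4cKO (limma adjusted p = 0.00585) and not from that of Sox11cKO cells (limma adjusted p = 0.066). The apical membrane protein gene *Mal* departed by -3.42 and *Arhgef3* by -3.17. Other called genes below the sum included *Odc1*, which encodes the first enzyme of polyamine synthesis, at -2.42, and *Fblim1*, a linker of filamin at cell junctions, at -2.30.

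**Figure D2:**
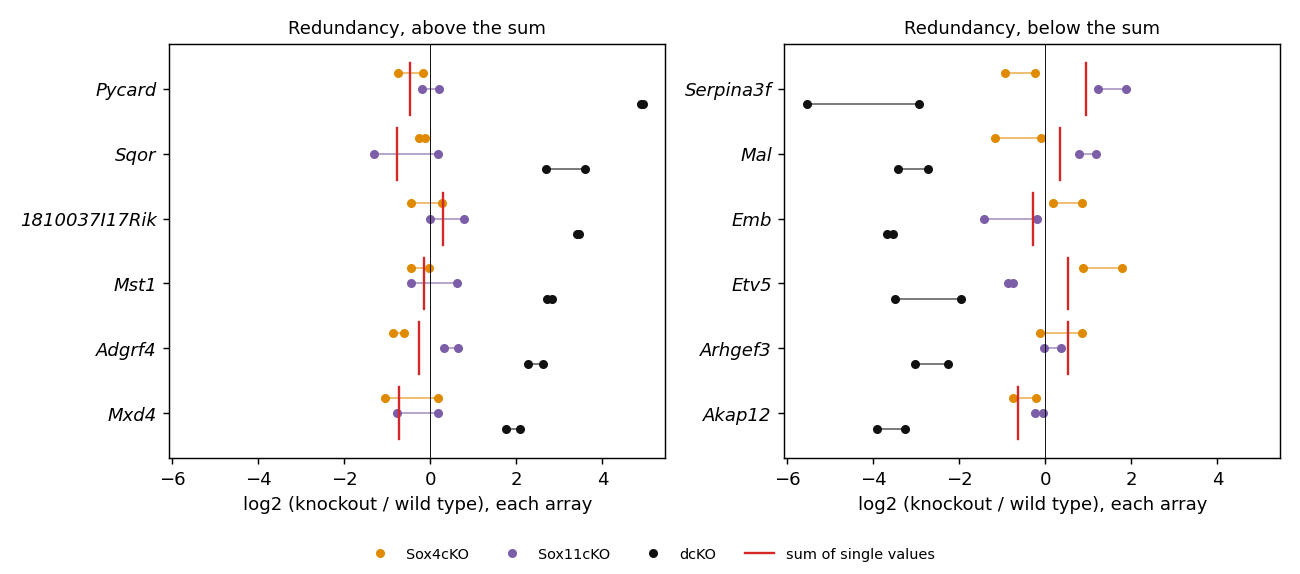
For the 6 genes with the largest departures on each side of the redundancy class, points give the log2 ratio (knockout over wild type) of each array, joined within a genotype, and the red bar marks the sum of the fitted single values. Both dcKO points (black) lie outside the range of the 4 single-knockout points for every gene shown, which the choice of these genes favours.

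Read against the mean of the 6 wild-type levels, the departure was 6.40 for *Pycard*, 1.97 for *Sqor*, 2.18 for *1810037I17Rik*, 2.17 for *Mst1*, 1.27 for *Adgrf4* and 0.22 for *Mxd4*. Among the genes below the sum it was -3.00 for *Mal*, -2.89 for *Emb*, -1.94 for *Akap12*, -1.81 for *Arhgef3*, -1.80 for *Etv5* and -1.07 for *Serpina3f*. The direction was kept by all 12, and *Adgrf4*, *Mxd4* and *Serpina3f* came to lie within 1.5 of 0. On that reference *Duoxa1* was at -0.01, *Duox1* at 0.37, *Odc1* at -0.46 and *Fblim1* at -1.94.

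Buffering had a median singles' sum of 2.81 in size and a median dcKO change of 0.40. The singles moved in the same direction in 43 of the 46 probes. Sox4cKO passed the threshold in 15 of them (0.142% of all probes), Sox11cKO in 22 (0.0862%) and dcKO in 0, and in 15 neither single passed. These ratios were part of the rule, and nothing is read from the counts or from the separation of arrays in the genes below. In 5 probes, *Snhg18* and *Trpv4* among them, the dcKO ratio still exceeded 1 in the direction of the singles, so that the single effects were reduced and not absent.

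The largest departures of this class above the sum, among probes above background in every group, were those of *Gsta3* and *Gstk1*, which encode glutathione transferases. Their promoters are shown because both genes fell in each single knockout and passed the test there (adjusted p from 0.0039 to 0.031) but not in the double. Those of *Gpx2*, a glutathione peroxidase, and *Krt18*, a keratin of simple epithelia, are shown as members of the opposite group with large departures, one above and one below the sum. *Gpx2* passed the test in Sox4cKO (adjusted p = 0.0444) and not in Sox11cKO cells (adjusted p = 0.206), and *Krt18* in neither (adjusted p = 0.0556 and 0.192). Each run is the 250 bases before the transcription start, read 5′ to 3′ from the gene's strand in RefSeq (GRCm38.p6). Capitals mark the SOX core ACAAAG, the AP-1 site TGANTCA or the antioxidant element TGACNNNGC on either strand.
*Gsta3*, chr1:21240335-21240584, plus strand: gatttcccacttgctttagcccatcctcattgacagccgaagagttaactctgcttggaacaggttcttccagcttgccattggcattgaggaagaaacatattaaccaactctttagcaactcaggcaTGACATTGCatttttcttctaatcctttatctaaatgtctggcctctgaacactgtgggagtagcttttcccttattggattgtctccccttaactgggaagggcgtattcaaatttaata
*Gstk1*, chr6:42245685-42245934, plus strand: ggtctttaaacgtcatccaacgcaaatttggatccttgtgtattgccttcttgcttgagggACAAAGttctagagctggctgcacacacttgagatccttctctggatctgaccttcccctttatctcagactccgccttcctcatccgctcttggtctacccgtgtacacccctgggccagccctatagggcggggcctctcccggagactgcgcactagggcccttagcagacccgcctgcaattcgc
*Gpx2*, chr12:76795555-76795804, minus strand: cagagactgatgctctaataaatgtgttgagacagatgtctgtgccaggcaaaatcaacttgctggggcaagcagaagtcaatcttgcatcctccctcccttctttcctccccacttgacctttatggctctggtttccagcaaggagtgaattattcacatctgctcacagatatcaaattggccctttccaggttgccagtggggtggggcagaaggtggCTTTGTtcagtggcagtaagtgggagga
*Krt18*, chr15:102027966-102028215, plus strand: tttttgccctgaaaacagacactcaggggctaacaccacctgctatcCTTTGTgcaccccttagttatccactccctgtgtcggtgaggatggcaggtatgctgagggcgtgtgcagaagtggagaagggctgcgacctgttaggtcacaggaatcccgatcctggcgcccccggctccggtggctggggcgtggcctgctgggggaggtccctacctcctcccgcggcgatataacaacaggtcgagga

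The capitals in *Gstk1*, *Gpx2* and *Krt18* are the SOX core, and those in *Gsta3* the antioxidant element. Of the 133 named genes that departed from the sum, 97 had such a window, and 16.5% of these held the SOX core, against 16.5% of the 27025 windows of all genes. The AP-1 site was in 10.3% against 6.87% and the antioxidant element in 11.3% against 10.1%. Where RefSeq lists several starts for a gene, the first was used. A match describes the letters of this window and was not tied to binding.

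*Gsta3* (probe A_51_P503625) gave log2 ratios of -3.70 and -2.46 in Sox4cKO, -2.41 and -2.02 in Sox11cKO, and 0.11 and 0.69 in dcKO cells. All 4 single-knockout arrays were low and both dcKO arrays slightly above 0. The departure was 5.70 ± 0.32 (SE, adjusted p = 0.0024), and the other probe of the gene departed by 4.97, also called.

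*Gstk1* gave -1.89 and -1.63, then -1.84 and -2.46, and 0.04 and 0.18 in dcKO cells. Its single-knockout values did not overlap with the dcKO values. Its departure was 4.02 ± 0.33 (SE, adjusted p = 0.0117). *Prdx4*, a peroxiredoxin of the endoplasmic reticulum, ran the other way and in Sox4cKO cells alone. It gave 3.52 and 2.23 there, 0.46 and 0.43 in Sox11cKO, and 0.18 and -0.43 in dcKO cells, for a departure of -3.45 ± 0.37 (SE, adjusted p = 0.0247). The wild-type level of *Prdx4* was 7.01 and 7.77 on the Sox4cKO arrays and between 10.23 and 10.40 on the other 4, whereas the knockout levels of all 6 arrays lay between 9.94 and 10.86.

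In other buffered genes 1 single knockout carried the change. *Cask*, a scaffold of cell junctions, gave -2.44 and -4.16 in Sox11cKO, -0.17 and -0.46 in Sox4cKO, and 0.25 and -0.25 in dcKO cells. Its departure was 3.62 (adjusted p = 0.03), but the other 2 probes of the gene were not called, the higher of them at 1.33. *Prl8a6*, a hormone gene of the prolactin family, gave -2.79 and -1.94 in Sox4cKO, -0.09 and -0.13 in Sox11cKO, and 0.65 and 1.19 in dcKO cells, a departure of 3.39 (adjusted p = 0.017). *Mbd1*, a reader of methylated DNA, departed by 3.55 on 1 of 3 probes, the lowest being 0.07.

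Small changes made up the remaining examples below the sum. *Ubash3b*, a tyrosine phosphatase gene, gave 1.75 and 1.23 in Sox4cKO, 0.14 and 0.34 in Sox11cKO, and -0.48 and -0.90 in dcKO cells. *Tmem141* gave 1.59 and 1.35, 0.38 and 0.07, and -0.29 and -0.70. *Sigirr*, an inhibitor of interleukin and Toll-like receptor signalling, gave 0.50 and 0.63, 1.04 and 1.29, and -0.65 and -0.95. All 3 changed sign between the single and double knockouts, with departures of -2.42 (adjusted p = 0.0332), -2.18 (adjusted p = 0.0275) and -2.53 (adjusted p = 0.0256). The chloride transporter gene *Slc26a9* departed by -2.33 (adjusted p = 0.0367). *Krt15*, a keratin of basal cells, lay above the sum by 2.63, with -1.58 in Sox4cKO, -0.20 in Sox11cKO and 0.85 in dcKO cells as fitted log2 ratios.

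Against the mean wild-type level the departures were 3.30 for *Gsta3*, 2.91 for *Gstk1*, 2.64 for *Cask*, 6.56 for *Mbd1* and 2.92 for *Prl8a6*. Below the sum they were -1.54 for *Prdx4*, -1.05 for *Sigirr*, -0.98 for *Ubash3b*, -2.18 for *Slc26a9* and -0.50 for *Tmem141*. *Krt15* was at -0.04 on that reference.

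The opposite group held the largest departures, and its rule requires single and double changes in opposite directions. *Gpx2* (probe A_51_P486810) gave log2 ratios of -3.19 and -4.23 in Sox4cKO, -1.02 and -3.44 in Sox11cKO, and 1.26 and 2.15 in dcKO cells. Every single-knockout array was below 0 and both dcKO arrays above it. The *Gpx2* ratio in dcKO cells did not itself pass the test (limma adjusted p = 0.133). Nor did its difference from that in Sox11cKO cells (limma adjusted p = 0.0606). The departure was 7.64 ± 0.79 (SE, adjusted p = 0.0221). Its wild-type level was between 12.40 and 13.46 on the 4 single-knockout arrays and 7.58 and 7.92 on the dcKO arrays, and against the mean wild-type level the departure was 0.69.

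*Hspb8*, a small heat shock protein gene, showed the same arrangement. It gave -1.53 and -0.51 in Sox4cKO, -1.12 and -1.34 in Sox11cKO, and 4.14 and 4.55 in dcKO cells, for a departure of 6.59 ± 0.37 (SE, adjusted p = 0.0024). The knockout levels of all 6 arrays lay between 8.53 and 10.76, while the wild-type levels were 5.48 and 6.21 on the dcKO arrays and 9.64 to 11.32 on the other 4. With the mean wild-type level as reference the departure of *Hspb8* was 0.53.

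The acute-phase genes *Orm1* and *Orm2* encode orosomucoids, plasma glycoproteins that rise in inflammation. *Orm1* gave -1.06 and -0.38 in Sox4cKO, -0.45 and -0.51 in Sox11cKO, and 3.93 and 5.03 in dcKO cells. Its departure was 5.68 ± 0.36 (SE, adjusted p = 0.00427), and that of *Orm2* was 5.66. The genes are near-identical copies, so that their probes may read the same RNA. Against the mean wild-type level the values were 2.92 and 2.99.

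*Gm15056* had the largest departure of all probes above background in every group, 9.32 ± 1.06 (SE, adjusted p = 0.0281). It gave -2.78 and -1.90 in Sox4cKO, 0.17 and -3.05 in Sox11cKO, and 5.23 and 5.85 in dcKO cells. The Sox11cKO arrays disagreed, but both were well under the dcKO arrays. On the common reference its departure was 7.34. *Sprr2a2*, a precursor of the cornified envelope, departed by 5.54 with a fitted dcKO ratio of 3.41.

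*Krt18* (probe A_51_P324814) led the genes below the sum. Its ratios were 1.41 and 1.77 in Sox4cKO, 1.15 and 1.00 in Sox11cKO, and -4.57 and -3.50 in dcKO cells. The single-knockout arrays were all above 0 and the dcKO arrays far below it. The departure was -6.70 ± 0.37 (SE, adjusted p = 0.0024), and -5.99 against the mean wild-type level.

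*Gng2*, which encodes a gamma subunit of heterotrimeric G proteins, was above wild type on both Sox4cKO arrays, the lower at 0.41, and gave 1.07 and 2.48 in Sox11cKO and -3.22 and -3.02 in dcKO cells. Its departure was -5.86 ± 0.62 (SE, adjusted p = 0.0229) and -2.46 on the common reference. *Wfdc2*, a secreted protein with protease inhibitor domains, gave 1.73 and 0.40, 0.52 and 2.15, and -2.98 and -3.72, for a departure of -5.76 (adjusted p = 0.0367). As in *Gng2*, the single and double knockout ratios of *Wfdc2* did not overlap. Its knockout level on Sox11cKO replicate 2 (9.48) was nevertheless below those on the dcKO arrays (11.18 and 10.12).

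*Bcl2l15*, a gene of the BCL2 family, departed by -5.95 (adjusted p = 0.0449), and all 3 of its probes were called. At that probe no genotype passed the test on its own. The limma adjusted p was 0.407 in Sox4cKO, 0.309 in Sox11cKO and 0.0786 in dcKO cells. On the common reference the value was -2.70 for *Wfdc2* and -0.72 for *Bcl2l15*. *Irf1*, a transcription factor of the interferon response, departed by -4.39, *Angptl4*, an inhibitor of lipoprotein lipase, by -5.37, *Itga7*, a laminin receptor subunit, by -4.02, *Areg*, a ligand of the epidermal growth factor receptor, by -3.15, and *Fosl1*, an AP-1 subunit, by -2.74. Against the mean wild-type level *Areg* was at -0.30 and *Fosl1* at -0.43, while *Irf1* was at -2.83, *Angptl4* at -2.70 and *Itga7* at -1.59.

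**Figure D3:**
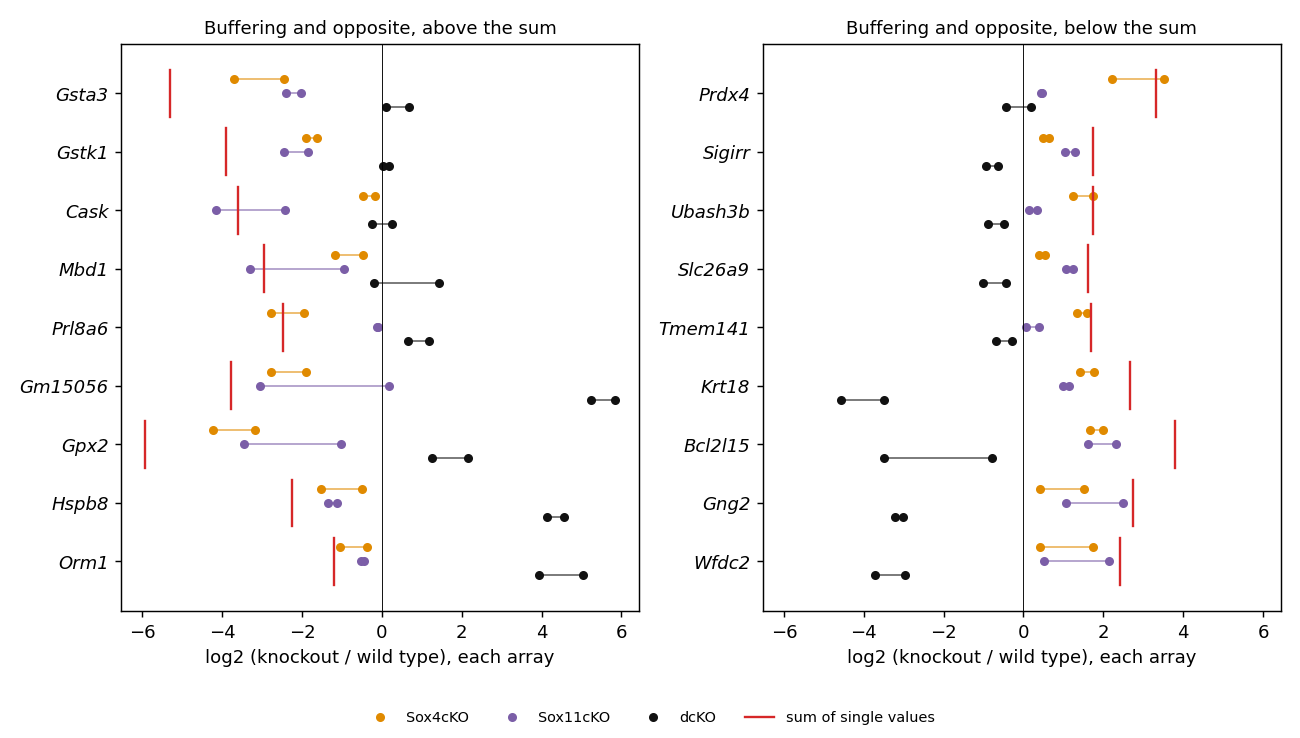
Log2 ratios (knockout over wild type) of each array are shown for 5 buffered genes and, under them, 4 genes of the opposite group on each side of the sum, with the red bar at the sum of the fitted single values. In the buffered genes the dcKO points lie within 1.5 of 0 and the red bar further out, and in the opposite group single and double knockouts lie on either side of 0, apart from 1 Sox11cKO array of *Gm15056* at 0.17. The rules of the 2 classes favour both patterns.

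A further 46 of the 183 probes were not above background in at least 1 group of channels, so that part of their departure is a bound and its fitted size depends on the offset. *Sostdc1*, an antagonist of BMP and Wnt signalling, was not well above background in Sox11cKO cells, where the fall from wild type was at least 29.6-fold (adjusted p = 0.0144), and in dcKO cells neither channel was above background. Its departure of 5.77 therefore set a fall in one comparison against no measurable level in another. The wild-type level of *Sostdc1* was 8.54 and 11.56 on the Sox11cKO arrays and under 6.3 on the rest.

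*Clec2f*, a C-type lectin gene, was not above background in dcKO cells, where the bound of 17.5-fold below wild type rests on its own dim signal (adjusted p = 0.000792), and not above background in either channel of Sox11cKO arrays. Its wild-type level was 9.62 and 9.95 on the dcKO arrays and 4.78 to 5.81 on the other 4, and the departure turned from -4.29 to 1.96 on the common reference. *Cyba*, a membrane subunit of the NADPH oxidase, behaved alike, with -4.38 and -5.14 in dcKO cells, values from -1.19 to -0.01 in the single knockouts, and departures of -4.09 (adjusted p = 0.0332) and 2.67 on the 2 references. A second *Cyba* probe was at -2.45 and was not called, and in Sox4cKO cells the gene was not above background. *Clec2f* and *Cyba* were the only 2 of the 38 genes chosen by size that turned direction on the common reference, and 24 of the 38 kept it beyond 1.5.

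*Vnn1*, a pantetheinase, gave -0.84 and 0.43, -0.66 and 0.04, and 3.50 and 6.11 in dcKO cells, a departure of 5.32 (adjusted p = 0.017) that was 4.06 on the common reference. Neither channel of the Sox11cKO arrays was above background for it. *Hdgfl3* was not above background in Sox11cKO cells, a difference from wild type of at least 8.4-fold (adjusted p = 0.0326), and departed by 5.31. For *Ppp2r2c*, a regulatory subunit of a protein phosphatase, the Sox11cKO bound, also from its own signal, was 4.77-fold and the difference did not pass the test (adjusted p = 0.127), and the departure was 5.56. *Cyp7b1*, an oxysterol hydroxylase, was not above background in dcKO cells, with a bound of 5.93-fold below wild type that likewise rests on its own signal (adjusted p = 0.00869). *Hif3a*, of the hypoxia-inducible factor family, had a bound of 1.66-fold above wild type in Sox4cKO cells (adjusted p = 0.431). *Cyp7b1* and *Hif3a* departed by -3.76 and -3.63, and were at -0.61 and -0.05 on the common reference. The other 2 *Hif3a* probes were at -0.84 and -0.10 and were not called.

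Over all 183 probes, 78 kept their direction beyond 1.5 when the mean wild-type level was the reference, 81 kept it at a smaller size and 24 took the other sign. In redundancy the numbers were 22, 19 and 13, in buffering 22, 15 and 9, and in the opposite group 33, 29 and 1. The difference between the values on the 2 references was larger in size than the value on the common one in 106 probes and smaller in 77. That difference also holds any effect shared by both channels of an array. A fit of limma to the separate channels, with all wild-type channels as 1 group, called 32 probes. Of those, 17 were among the 183, and 0 of the 183 changed sign in that fit. The fit uses the correlation between the 2 channels of a spot, estimated at 0.628. It thus keeps part of the pairing that the common reference drops, and cannot decide whether the signs hold without it. *Clec2f* and *Cyba* were at -1.96 and -1.58 in that fit.

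**Figure D4:**
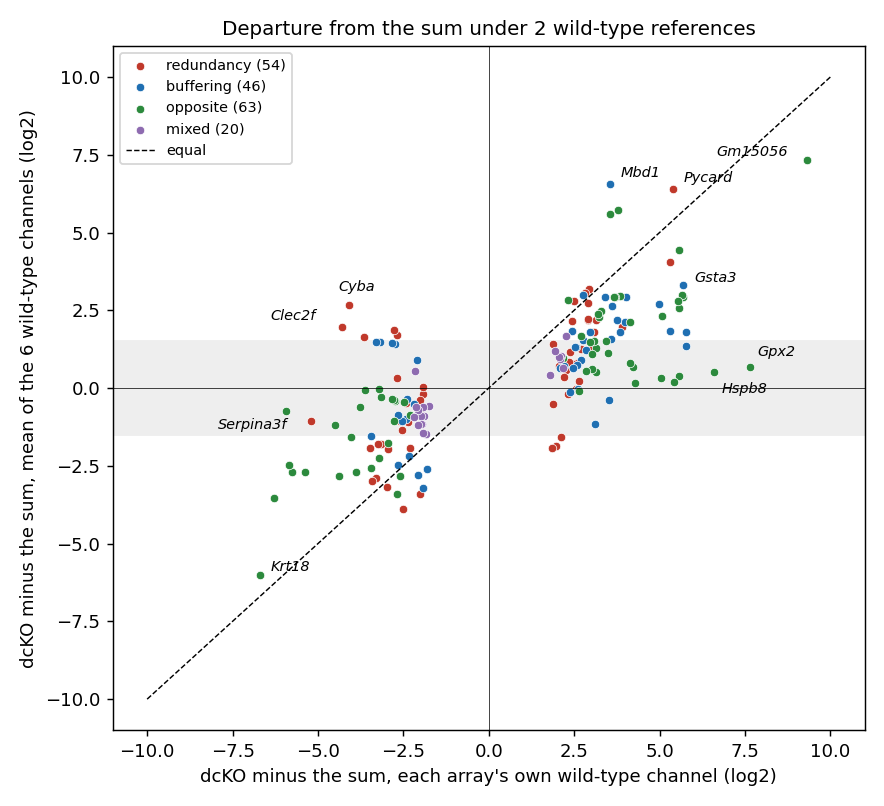
For each of the 183 probes the departure from the sum (log2) against each array's own wild-type channel is on the horizontal axis and against the mean of the 6 wild-type channels on the vertical axis, with the grey band spanning -1.5 to 1.5. *Pycard*, *Krt18* and *Gm15056* lie near the dashed line of equality, *Hspb8* and *Gpx2* in the band, and *Cyba* and *Clec2f* in the upper left, where the sign turned.

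Seen from the single knockouts, most of their own changes were smaller in dcKO cells. Of the 79 probes called in Sox4cKO (0.142%), the dcKO change was less than 0.5 times the single change in size in 59 and of opposite sign in 17, and the difference between the genotypes was itself called in 21. Of the 48 called in Sox11cKO (0.0862%), the corresponding numbers were 33, 21 and 26. The median size of the single change was 2.31 in Sox4cKO and 2.17 in Sox11cKO, and the median dcKO ratio in the same direction was 0.30 and 0.06. Probes picked for a large single change are measured too large on average. From the side of the double knockout, 93 of its 421 called probes departed from the sum (22.1%, against 0.329% of all probes). Of the 421, 269 lay beyond the sum by more than 1.5 in the direction of the dcKO change, whether called or not. The dcKO ratio is part of the departure, so choosing probes by it favours both counts, and nothing is read from them. The median SE of the departure was 0.278, against 0.16 for the dcKO ratio, because the departure adds the error of 3 genotypes.

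Lists of genes with a shared role were described by the departure of each gene's brightest probe. Over all 21368 named genes the median was -0.01, with 51.4% below the sum and 0.585% called. Over the 11348 of them above background in every group it was -0.06, with 53.8% below. The study's 25 positive SoxC targets had a median of -1.27, and 23 lay below the sum. The study chose its target lists in part on dcKO cells, so the direction of neither list is independent evidence. The targets' median ratio was -1.92 in dcKO cells and -0.39 for the singles' sum.

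Of these targets *Gng2*, *Fblim1*, *Pxdn* and *Ror2* were called. *Pxdn*, a peroxidase that crosslinks collagen, gave fitted ratios of -1.36 in Sox4cKO, -1.02 in Sox11cKO and -5.37 in dcKO cells, and departed by -2.99 (adjusted p = 0.0332). *Ror2*, a receptor for Wnt ligands, departed by -2.79 (adjusted p = 0.0229) and was at 1.85 on the common reference. *Lgals1*, which encodes galectin, had the lowest value of all named probes, -8.41, and did not pass the test (adjusted p = 0.0568), its Sox4cKO arrays being 3.09 and -0.86. *Fscn1*, a bundler of actin, was at -3.00 (adjusted p = 0.06) and the ETS factor gene *Etv4* at -2.84 (adjusted p = 0.0734). All 4 negative targets lay above the sum, with a median of 1.99, and *Camta1* was called at 2.95.

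Genes of actin and adhesion had a median departure of -0.81, with 32 of 34 below the sum and 15 of them below it in all 8 combinations. Of all 21368 named genes 3326 were below it in all 8, and of the 11348 above background in every group 2214. A single member of the list, *Fblim1*, was called. The list's median ratio was -0.62 in dcKO cells and 0.01 for the singles' sum. The list shares *Fscn1*, *Evl*, *Tmsb10*, *Marcksl1* and *Fblim1* with the positive targets. *Itga5*, a fibronectin receptor subunit, was not called (adjusted p = 0.111), nor were *Myh9*, a heavy chain of nonmuscle myosin, with a departure of -1.21, and *Cfl1*, which severs actin filaments, with -0.95. *Myl9*, a myosin light chain, was at -2.90 (adjusted p = 0.0554), with 2.92 and 3.52 in Sox11cKO cells and -0.37 and -0.18 in dcKO cells.

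The 28 genes of the cell cycle had a median of -0.75, with 24 below the sum and 0 called, although 13 had an unadjusted p under 0.05. Their median singles' sum was 0.61 and their median dcKO ratio -0.18. *Ccnd1*, the cyclin of the early cycle, stood at -1.85 (adjusted p = 0.0727) and *Mcm3*, a subunit of the replicative helicase, at -1.65 (adjusted p = 0.081). On the common reference the median of the list was -0.14, and that of actin and adhesion -0.70. There the positive targets were at -1.04, interferon response genes at -0.59, differentiation genes at 0.01, redox genes at -0.16, extracellular matrix genes at -0.19 and acute-phase genes, whose median turned sign, at 0.12.

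Interferon response genes had a median of -0.41, with 16 of 20 below the sum. *Irf1* and *Sting1*, an adaptor that senses cyclic dinucleotides, were called. *Sting1* departed by -2.64 (adjusted p = 0.0375), with 1.38 and 2.32 in Sox11cKO and -0.51 and -0.14 in dcKO cells, and was not above background in every group. Only 7 members of this list were above background in all groups.

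Keratinocyte differentiation genes had a median of 0.34, with 11 of 18 above the sum and 0 called, 8 of them at an unadjusted p under 0.05. *Casp14*, a protease of cornification, was at 2.91 (adjusted p = 0.124) and *Cdsn*, an adhesion protein of the cornified layer, at 2.71 (adjusted p = 0.211), while *Tgm1*, a crosslinking transglutaminase, was at -2.11 (adjusted p = 0.117). The glutathione and redox list had 12 members above and 13 below the sum. *Gpx2* and *Gsta3* were called above the sum and *Prdx4* and *Cyba* below, so that against their own wild-type channels these departures ran both ways. On the common reference *Gsta3* was at 3.30, *Gpx2* at 0.69 and *Prdx4* at -1.54, while *Cyba* had turned sign to 2.67. The acute-phase and innate defence list had a median of -0.25, with *Orm1*, *Orm2*, *Vnn1* and *Pycard* called above the sum and *Cyba* below. Extracellular matrix genes had a median of -0.20, with 11 above and 18 below the sum and *Pxdn* called. The proliferin genes *Prl2c1* and *Prl2c5*, growth-promoting hormones whose sequences are close enough for probes to be shared, were at 4.70 and 4.99 with adjusted p of 0.0603 and 0.0516.

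**Figure D5:**
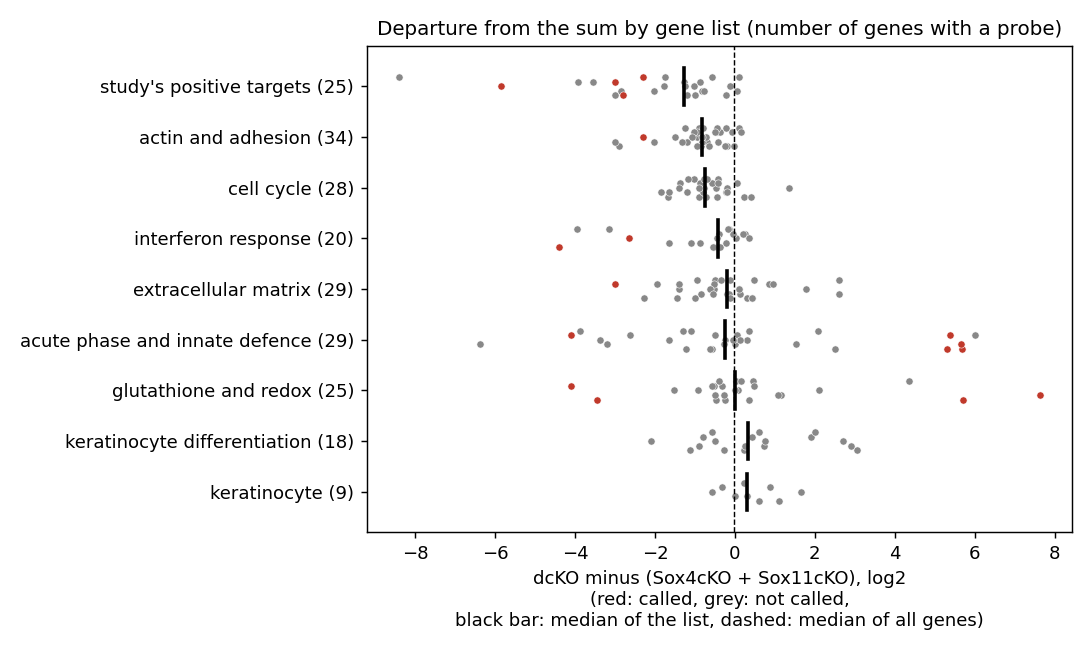
Each point is the departure from the sum (log2) of 1 gene's brightest probe, red where called, with the black bar at the list's median and the dashed line at the median of all named genes. Positive targets, actin and adhesion, and cell cycle genes lie mostly to the left of the line, and the redox and acute-phase lists spread to both sides of it.

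The probes nearest the threshold were *Lurap1l* at 2.86 and *Dsg2* at -2.59 (adjusted p = 0.0487 for both) and a probe without a gene name at 2.14 (adjusted p = 0.0492) on the inner side, and *Sesn1* at 2.37 and *Eci1* at -1.97 (adjusted p = 0.0504 for both) on the outer side.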

How the data were processed

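Wild-type and knockout keratinocyte RNA was compared on 6 two-colour arrays, with genotypes taken from the sample titles. The authors scanned the arrays with Agilent Feature Extraction 11.0.1.1, and the scanner output holds each spot's intensity as a raw median and as a processed signal, with marks for background, saturation and outliers. A second deposited table gives log2 ratios after normexp, loess and removal of a dye effect by the authors, and set against the scanner values it was found to run as knockout over wild type. Arrays shared 1 slide and 1 scan.

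Analysis used R 4.3.3 and limma 3.58.1: normexp on median signals with the study's offset of 16, loess within arrays, 3671 of 62976 spots left out as controls, outlier spots (194 to 288 an array, with 0 saturated) set missing, and spots of a probe averaged. Per-channel levels were scaled with Aquantile. lmFit and eBayes estimated 3 genotype effects and a dye effect over all 6 arrays, leaving 2 residual degrees of freedom with 5.37 added by the prior. The contrast dcKO minus Sox4cKO minus Sox11cKO was tested two-sided and called at a Benjamini-Hochberg adjusted p below 0.05 over all probes and a size above 1.5. The dye term equals a block on the replicate number. Deviations from genotype means correlated between same-numbered arrays at 0.316, 0.244 and 0.125 across probes. Same-numbered arrays share their dye orientation, so a dye effect alone can give such values. They cannot show whether the numbers pair cultures. The fit was tested on simulated data with independent noise. Departures of 2 to 5 were planted only in probes above background in both channels of all arrays. The fit recovered most of them, but 31 of its 227 calls (13.7%) were false, a larger share than the adjusted p threshold allows. Adjusted p here may therefore be too small, and recovery in dimmer probes was not tested. *Sox4*, *Sox11* and *Sox12* were added as the targeted genes and their relative. A group not well above background on either array gets a bound, "at least N-fold", from the higher of its own level and the lowest level among probes above background, per array.

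RefSeq accessions gave names (GRCm38.p6) to 28331 probes of 21368 genes, 95.1% of 29786 with such an accession. The array was designed on mm9, so no probe coordinates are given. Named genes were the 6 largest departures in each direction of redundancy, 5 of buffering and 4 of the opposite group, all with 1 sign in the 8 array combinations and every group above background, and 4 in each direction among called probes with a group below background. Each gene was read from its brightest called probe. Further called genes and list members were picked after their values were seen. The classes, genes and lists were chosen with earlier results of these data known.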

Additional observations from a re-analysis of the deposited data

Results flagged for a closer look

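For 3 genes named above, 1 of the 6 wild-type channels lay apart from the other 5 by more than the 95% limit of Dixon's test, which chance passes in about 1 in 20 groups. The genes were chosen by values that include these channels, so the limit is only a rough guide, and nothing is read from the number of genes past it. The wild-type level of *Akap12* was 9.54 on Sox11cKO replicate 2 and 12.3 to 13.9 on the other arrays. That of *Wfdc2* was 7.33 on Sox11cKO replicate 2 and 12.1 to 14.2 elsewhere. That of *Gstk1* was 10.3 on Sox11cKO replicate 1 and 7.48 to 8.01 elsewhere.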

How the results depend on the processing

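All 183 departures, and so the 38 genes chosen by size, kept their sign in every refit in which they were tested. They were chosen by their p on these same arrays, which favours this. Refits that changed only the dye term, balanced by the swap, or the prior variance could not turn a sign. Such refits leave the departure as it was where no spot is missing. On the common wild-type reference, which was not a fit, 24 of the 183 and 2 of the 38 took the other sign. The counts did not hold. Counts are given as all called probes, then redundancy, buffering and opposite, against 183, 54, 46 and 63. Offset 50 and the processed signals gave 0 throughout. The authors' log2 ratios gave 902, 175, 225 and 147, and median centring 1189, 243, 129 and 185. Median centring called 179 above and 1010 below the sum, against 103 and 80, and moved the median of genes above background from -0.06 to -0.56. Dropping the replicate block (here the dye term) left 41, 8, 12 and 21. With the dye effect subtracted first, 344 were called in all. Restriction to probes above background gave 32, 5, 10 and 17 of 22924 tested, and the fit of separate channels 32, 13, 4 and 6. A stricter class limit left 40 in the opposite group. Leaving out 1 array gave 19 to 1922 probes in all, 3 to 180 for redundancy, 5 to 700 for buffering and 11 to 346 for the opposite group. The count of all probes was lowest without Sox4cKO replicate 1 and highest without Sox11cKO replicate 1. An arm left with 1 array is assumed to vary like the others. A prior variance that follows brightness, added after seeing the data, gave 202, 53, 55 and 84. Mean spot signals were not run, as only medians were used here. The cause of these differences was not tested. Relative to all measured genes, list medians stayed below 0 in every setting for positive targets (-1.73 to -1.11), actin and adhesion (-0.845 to -0.518) and cell cycle (-0.942 to -0.403), and changed sign for interferon response, redox and acute-phase genes. Signal over background limits the 46 probes not measured in every group.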
